A study of Mus musculus with 11 samples.

Results

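The genes described here encode heat shock proteins, J-proteins and chaperonins, the main protein folding machinery of the cell. They were chosen by symbol (the Hspa to Hsph, Hsp90, Dnaja, Dnajb, Dnajc and Cct gene names, with Tcp1) and by a level of at least 1 FPKM in at least 3 of 11 libraries. FPKM divides the fragments of a gene by transcript length and by library total, so levels can be compared between genes. Of 80 symbols that match, 71 passed the filter, among 14491 genes of the table that did so. They comprise 8 subunits of the cytosolic chaperonin CCT, 2 mitochondrial chaperonin genes, 3 Hsp90 genes, 14 Hsp70 and Hsp110 genes, 4 genes with small heat shock protein symbols and 39 J-protein genes, of which 4 are of type A, 10 of type B and 25 of type C. The remaining gene, Hspg2, was caught by its symbol alone: it encodes perlecan, a proteoglycan of basement membranes and no chaperone.

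Hsp70 proteins bind unfolded stretches of a protein and release them in a cycle driven by ATP. J-proteins deliver the clients and start ATP hydrolysis, and Hsp110 proteins and other exchange factors reset the cycle. Hsp90 acts later, on kinases, receptors and other proteins close to their final fold, while CCT encloses actin, tubulin and further clients in a ring-shaped chamber. Sets of related chaperones work in the endoplasmic reticulum (ER) and in mitochondria. Neurons hold specialized J-proteins at synapses, where they uncoat clathrin vesicles and guard vesicle proteins.

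Libraries came from 4 brain tumors driven by NRAS G12V, 4 brain tumors driven by PDGFB and 3 normal brains of mice. Per the series text, tumors were made by injecting plasmids into a lateral ventricle of newborn FVB mice. These plasmids carried Sleeping Beauty transposase, luciferase, SV40 large T antigen and either oncogene, so both tumor groups share SV40 large T, which the labels do not give for normal brain. Tumors were taken at mid-stage, and tissue was dissected by its GFP fluorescence. The sample labels name the strain B6 for all libraries except normal brain 3, which is labelled FVB. Titles match normal brain 1 to NRAS tumor 2 and normal brain 3 to PDGFB tumor 1. The labels do not say that the other libraries of a group came from separate mice, so the p-values reflect only how far these samples spread. Title numbers fall into a series from 1834 to 1838 (all normal brains, NRAS tumors 1 and 2) and one from 2038 to 2046 (NRAS tumors 3 and 4, all PDGFB tumors). What separates the series is not stated, and no PDGFB tumor shares a series with a normal brain. A fit with the title series in the model thus takes the series difference from NRAS tumors alone (1 and 2 against 3 and 4). Its values for PDGFB tumors against normal brain carry that difference over and are no direct correction of these groups.

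Nras was at 82.0 to 154 FPKM in NRAS tumors, against 31.7 to 42.9 FPKM in PDGFB tumors and 13.01 to 17.5 FPKM in normal brain. Pdgfb was at 745 to 1564 FPKM in PDGFB tumors and at no more than 7.80 FPKM elsewhere, so the libraries match their labels. Depth relative to the deepest library ran from 0.782 to 1, and 12705 to 13923 genes reached 1 FPKM per library. The tissue itself changed: the summed level of 10 neuron markers was 273 to 1245 FPKM in NRAS tumors and 115 to 681 FPKM in PDGFB tumors, against 2494 to 2969 FPKM in normal brain. That of 9 cell cycle markers was 242 to 767 FPKM in NRAS tumors and 660.3 to 1064 FPKM in PDGFB tumors, against 45.8 to 48.4 FPKM in normal brain. No marker of these lists was listed at 0 in any library. In such bulk tissue fewer cells of a type and less RNA per cell cannot be told apart.

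Taken as a whole, the folding machinery did not move one way. In NRAS tumors against normal brain 25 of the 71 genes were higher, 21 were lower and 25 did not pass an adjusted p of 0.05 in limma. Passing thus were 64.8% of them, beside 62.3% of all genes tested (32.0% higher and 30.3% lower). In PDGFB tumors against the same 3 normal brains 24 were higher, 24 were lower and 23 did not pass, which is 67.6% beside 58.5% of all genes (29.3% higher and 29.2% lower). The groups did not overlap for 28 genes above and 24 below normal brain in NRAS tumors, while 65.1% of all genes did not overlap either way. In PDGFB tumors this was so for 26 above and 26 below, beside 65.7% of all genes. The shares of the 71 genes lie a little above the background, and their median log2 fold change was 0.12 in NRAS tumors and 0.06 in PDGFB tumors, beside 0.01 and 0.04 over all genes in those comparisons. The classes differed in direction. All 8 CCT genes, the mitochondrial chaperonin and the chief ER chaperones were higher in either tumor, while 15 J-protein genes in NRAS tumors and 19 in PDGFB tumors were lower. With the title series in the model 39 of the 46 calls in NRAS tumors and 20 of the 48 in PDGFB tumors still passed (8 higher and 13 lower in PDGFB tumors, 1 of them gained through a reversal). Over all genes the number of calls fell too, from 9023 to 7219 in NRAS tumors and from 8470 to 4768 in PDGFB tumors. Within the series that holds normal brains and NRAS tumors 1 and 2, 34 of the 46 calls in NRAS tumors passed. That fit called 5817 of all 13348 genes it tested.

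The summed level of the 71 genes was 6495 ± 566 FPKM in NRAS tumors, 6215 ± 448 FPKM in PDGFB tumors and 5723 ± 362 FPKM in normal brain (SD, n = 4, 4 and 3). Hspa8 alone, the constitutive cytosolic Hsp70, held 20.3% to 23.3% of that sum in NRAS tumors, 20.8% to 23.4% in PDGFB tumors and 22.4% to 24.2% in normal brain. Within the sum the classes shifted. The share of CCT was 15.7% to 21.1% in NRAS tumors and 18.9% to 22.4% in PDGFB tumors, above the 11.6% to 12.6% of normal brain. That of J-proteins was 15.6% to 19.5% in NRAS tumors and 16.5% to 18.1% in PDGFB tumors, below the 21.9% to 23.6% of normal brain. The 14 Hsp70 and Hsp110 genes together held 31.9% to 33.9% in NRAS tumors, 31.4% to 33.2% in PDGFB tumors and 32.7% to 34.3% in normal brain.

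CCT, whose subunits fold actin and tubulin, was higher in tumors of either kind. Cct5 was the most abundant subunit in 10 of the 11 libraries, at 247, 165, 209 and 202 FPKM in the NRAS tumors, 198, 246, 220.3 and 274 FPKM in the PDGFB tumors and 132, 111 and 113 FPKM in normal brain. Every tumor lay above every normal brain. Taken on log2(FPKM + 1), the log2 fold change was 0.78 ± 0.16 (SE, adjusted p = 0.00191) in NRAS tumors and 0.97 ± 0.16 (adjusted p = 0.000537) in PDGFB tumors. The steepest rise was that of Cct2 in NRAS tumors, at 1.01 ± 0.18 (adjusted p = 0.000794), and of Cct3 in PDGFB tumors, at 1.16 ± 0.19 (adjusted p = 0.000469). Cct2 averaged 191 ± 42.5 FPKM in NRAS tumors, 179 ± 21.4 FPKM in PDGFB tumors and 92.5 ± 6.60 FPKM in normal brain (SD). Tcp1, the founding subunit, averaged 106 ± 16.9 FPKM in NRAS tumors, 113 ± 10.4 FPKM in PDGFB tumors and 71.95 ± 4.24 FPKM in normal brain, log2 fold changes of 0.53 ± 0.14 (adjusted p = 0.00748) in NRAS tumors and 0.65 ± 0.14 (adjusted p = 0.00265) in PDGFB tumors.

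Cct4, Cct6a and Cct7 lay between the steepest rise and that of Tcp1. Cct4 changed by 0.86 ± 0.18 (adjusted p = 0.00189) in NRAS tumors and 1.03 ± 0.18 (adjusted p = 0.000688) in PDGFB tumors. Cct6a changed by 0.62 ± 0.15 (adjusted p = 0.00424) in NRAS tumors and 0.70 ± 0.15 (adjusted p = 0.00213) in PDGFB tumors. Cct7 changed by 0.58 ± 0.16 (adjusted p = 0.00771) in NRAS tumors and 0.78 ± 0.16 (adjusted p = 0.00152) in PDGFB tumors. In either comparison the smallest CCT change was that of Cct8, at 0.56 in PDGFB tumors. Cct8 was at 141, 105, 129 and 138 FPKM in NRAS tumors and 108, 90.3 and 89.6 FPKM in normal brain. NRAS tumor 2 fell within the normal range there. In NRAS tumors its log2 fold change was 0.42 ± 0.14 (adjusted p = 0.0226). That call was lost without NRAS tumor 1 (0.37, adjusted p = 0.0575), NRAS tumor 4 (0.38, adjusted p = 0.0526), normal brain 2 (0.38, adjusted p = 0.0805) or normal brain 3 (0.37, adjusted p = 0.0846). NRAS tumor 2 had the lowest level of each of the 8 subunits among the 8 tumors and also their lowest cell cycle marker sum, 242 FPKM. The part of cell cycle activity in the level of CCT was not tested. With the title series in the model 6 of the 8 subunits passed in NRAS tumors and 3 of 8 in PDGFB tumors, namely Cct3, Cct4 and Cct5. Within the series of the normal brains 4 of 8 passed in NRAS tumors. With FPKM rescaled to an FPKM sum without small RNA genes Cct8 in NRAS tumors was at 0.27 (adjusted p = 0.0651).

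The subunits of this ring are built in equal numbers, but their mRNA levels differed. In a library the highest subunit exceeded the lowest by a factor of 1.836 to 2.195, and the lowest was Tcp1 in 7 of the 8 tumors and Cct4 in NRAS tumor 4 and all 3 normal brains. Cct8 held 11.03% ± 0.618 of the CCT sum in NRAS tumors, 11.1% ± 0.619 in PDGFB tumors and 13.7% ± 0.279 in normal brain (SD), while Cct2 held 16.2% ± 1.19 in NRAS tumors, 14.1% ± 0.1001 in PDGFB tumors and 13.2% ± 0.204 in normal brain. These shares were not tested. Prefoldin hands actin and tubulin to CCT, and phosducin-like proteins assist it: 5 of 9 such cofactors were higher and none lower in NRAS tumors, and 6 were higher and none lower in PDGFB tumors. Of all genes 62.3% were called in NRAS tumors (32.0% higher) and 58.5% in PDGFB tumors (29.3% higher). The share of cofactors called in either direction was near that background. All of their calls were higher, however, and the share higher exceeded the 32.0% and 29.3% of all genes. That excess was not tested. The phosducin-like gene Pdcl3 had the largest changes, 0.89 ± 0.17 (adjusted p = 0.00104) in NRAS tumors and 1.04 ± 0.17 (adjusted p = 0.000423) in PDGFB tumors. Of the prefoldin subunits Pfdn1 reached 0.81 ± 0.17 (adjusted p = 0.00212) in NRAS tumors, and Pfdn4 0.79 ± 0.17 (adjusted p = 0.0022) in NRAS tumors and 0.70 ± 0.17 (adjusted p = 0.00434) in PDGFB tumors.

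**Figure D1:**
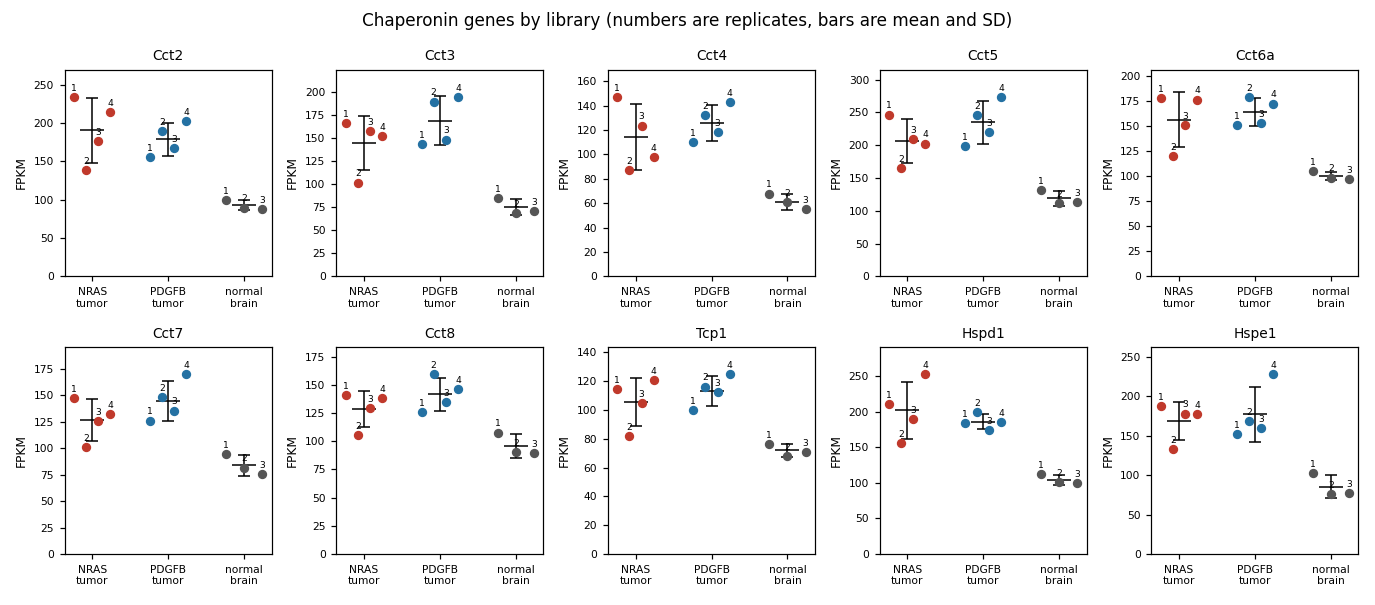
FPKM of the 8 CCT subunits and of the mitochondrial chaperonin genes Hspd1 and Hspe1 in each library, with replicate numbers at the points and bars for the mean and SD of 4 NRAS tumors, 4 PDGFB tumors and 3 normal brains. Apart from Cct8 in NRAS tumor 2, every tumor lies above every normal brain in each panel.

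The mitochondrial chaperonin also rose. Hspd1 encodes Hsp60, the barrel in which imported proteins fold, and Hspe1 encodes Hsp10, its lid. Hspd1 stood at 210.3, 156, 189 and 253 FPKM in the NRAS tumors, 184, 200.04, 175 and 186 FPKM in the PDGFB tumors and 113, 101 and 99.8 FPKM in normal brain, with log2 fold changes of 0.93 ± 0.15 (adjusted p = 0.000559) in NRAS tumors and 0.83 ± 0.15 (adjusted p = 0.000987) in PDGFB tumors. Hspe1 stood at 188, 134, 178 and 177 FPKM in the NRAS tumors, 152, 169, 159.5 and 228 FPKM in the PDGFB tumors and 103, 76.4 and 77.2 FPKM in normal brain, with log2 fold changes of 0.98 ± 0.18 (adjusted p = 0.00101) in NRAS tumors and 1.04 ± 0.18 (adjusted p = 0.000689) in PDGFB tumors. No tumor overlapped normal brain for either gene. The ratio of Hspd1 to Hspe1 was 1.06 to 1.43 in NRAS tumors, 0.814 to 1.21 in PDGFB tumors and 1.10 to 1.32 in normal brain, and the 3 comparisons gave exact permutation p-values of 0.286 to 0.743. With the title series in the model neither call in PDGFB tumors passed (Hspd1 0.56, adjusted p = 0.0998, and Hspe1 0.87, adjusted p = 0.0515).

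Both genes are read outward from a shared promoter region on chromosome 1, and their annotated spans overlap by 96 bases, so reads there cannot be told apart by gene unless strand was used. The RefSeq promoter window of Hspe1 (250 bases before to 50 after its start, GRCm38.p6, chr1:55087898-55088197, plus strand) shares 285 of 300 bases with a window of Hspd1. Inverted GAA repeats form the heat shock element, the site that heat shock factors bind. Searched on both strands as GAA, TTC and GAA, each parted from the next by 2 bases of any kind, it is in 198 of 32851 promoter windows (0.603%) and in 6 of 78 windows of the genes described here (7.69%), which cover 59 of the 71. Only exact matches were counted, so a gene without one may still hold an imperfect element. The 4 genes with a match are Hspd1, Hspe1, Hsph1 and Dnajb6, of which the first pair rose and the others fell. Overlapping windows of Hspe1 and Hspd1 hold the same matches and were counted separately. The windows of 3 genes are shown with the matches in capitals, that of Hspe1 standing for Hspd1 too. In the Hspe1 window a pair of overlapping matches covers bases 162 to 179.
Hspe1: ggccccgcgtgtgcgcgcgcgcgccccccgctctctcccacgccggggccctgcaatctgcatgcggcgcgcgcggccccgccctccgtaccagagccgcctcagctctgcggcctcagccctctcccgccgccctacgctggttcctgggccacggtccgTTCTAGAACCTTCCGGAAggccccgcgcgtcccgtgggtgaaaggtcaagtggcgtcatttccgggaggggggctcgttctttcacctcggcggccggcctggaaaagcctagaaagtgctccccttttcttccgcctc
Hsph1: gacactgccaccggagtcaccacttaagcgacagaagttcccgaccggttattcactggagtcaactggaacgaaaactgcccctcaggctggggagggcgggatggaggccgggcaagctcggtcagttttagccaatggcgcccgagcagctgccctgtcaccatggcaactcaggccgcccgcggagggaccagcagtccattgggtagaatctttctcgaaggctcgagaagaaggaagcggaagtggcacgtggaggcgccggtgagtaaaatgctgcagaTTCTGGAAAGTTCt
Dnajb6: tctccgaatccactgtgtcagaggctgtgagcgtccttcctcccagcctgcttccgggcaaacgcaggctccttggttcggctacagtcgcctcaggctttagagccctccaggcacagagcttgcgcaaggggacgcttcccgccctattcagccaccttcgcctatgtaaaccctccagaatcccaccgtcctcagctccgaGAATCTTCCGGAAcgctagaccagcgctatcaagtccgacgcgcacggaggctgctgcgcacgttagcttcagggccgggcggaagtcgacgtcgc
The Hsph1 window is chr5:149636287-149636586 (minus strand), 1 of 2 windows of the gene, with the match at bases 287 to 299, after the start. That of Dnajb6 is chr5:29735648-29735947 (plus strand), also 1 of 2, with the match at bases 205 to 217. A match is a string of letters, and binding was not measured.

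Hspa9, or mortalin, is the mitochondrial Hsp70 that draws imported proteins into the matrix. It was at 215, 146, 190.2 and 193 FPKM in the NRAS tumors, 148, 199, 142 and 144 FPKM in the PDGFB tumors and 94.9, 88.3 and 95.6 FPKM in normal brain, above normal brain in every tumor, with log2 fold changes of 0.98 ± 0.16 (adjusted p = 0.00052) in NRAS tumors and 0.75 ± 0.16 (adjusted p = 0.00226) in PDGFB tumors. In PDGFB tumors the call did not pass with the title series in the model (0.64, adjusted p = 0.0953). Of 7 genes of mitochondrial protein quality control 3 were higher in NRAS tumors and 2 in PDGFB tumors, with none lower, beside 32.0% of all genes higher in NRAS tumors and 29.3% in PDGFB tumors, so these counts are near the background. Among them were the Hspa9 exchange factor Grpel2, at 0.60 ± 0.16 (adjusted p = 0.00815) in NRAS tumors and 0.71 ± 0.16 (adjusted p = 0.00333) in PDGFB tumors, and the protease gene Lonp1, at 0.36 ± 0.12 (adjusted p = 0.0281) in NRAS tumors and 0.50 ± 0.12 (adjusted p = 0.00539) in PDGFB tumors. Trap1, the mitochondrial Hsp90 and named with its values known, had log2 fold changes of 0.16 ± 0.15 (adjusted p = 0.373) in NRAS tumors and -0.12 ± 0.15 (adjusted p = 0.515) in PDGFB tumors. Dnajc19, a J-protein of the inner membrane, was at 36.6, 32.8, 35.1 and 36.9 FPKM in the NRAS tumors, 36.2, 59.2, 41.1 and 62.6 FPKM in the PDGFB tumors and 30.9, 29.03 and 32.7 FPKM in normal brain. Its changes were 0.19 ± 0.18 (adjusted p = 0.367) in NRAS tumors and 0.64 ± 0.18 (adjusted p = 0.00975) in PDGFB tumors, the second not past the threshold with the title series in the model (0.58, adjusted p = 0.159). Its span overlaps that of Fxr1 by 52.8%.

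In the ER the main chaperones were higher in either tumor. Hspa5 encodes BiP, the ER Hsp70, and was at 278, 219.6, 342 and 316 FPKM in the NRAS tumors, 203, 209, 245 and 293 FPKM in the PDGFB tumors and 161, 133 and 143 FPKM in normal brain. Hsp90b1 encodes GRP94, the ER Hsp90, and was at 358, 319.6, 439 and 494 FPKM in the NRAS tumors, 296, 302, 303 and 328 FPKM in the PDGFB tumors and 223, 194 and 194 FPKM in normal brain. Dnajb11, a J-protein that serves BiP in the ER, was at 58.1, 51.9, 70.6 and 71.7 FPKM in the NRAS tumors, 51.3, 48.8, 55.1 and 66.9 FPKM in the PDGFB tumors and 35.1, 28.9 and 35.9 FPKM in normal brain. For each of the 3 genes all tumors exceeded all normal brains. Hspa5 changed by 0.97 ± 0.18 (adjusted p = 0.0011) in NRAS tumors and 0.69 ± 0.18 (adjusted p = 0.00723) in PDGFB tumors. Hsp90b1 changed by 0.96 ± 0.16 (adjusted p = 0.000567) in NRAS tumors and 0.59 ± 0.16 (adjusted p = 0.00822) in PDGFB tumors. Dnajb11 changed by 0.90 ± 0.15 (adjusted p = 0.00067) in NRAS tumors and 0.72 ± 0.15 (adjusted p = 0.00224) in PDGFB tumors. None of these PDGFB calls passed with the title series in the model, where the values were 0.28 for Hspa5 (adjusted p = 0.438), 0.13 for Hsp90b1 (adjusted p = 0.646) and 0.35 for Dnajb11 (adjusted p = 0.24). Hspa5 shares 43.3% of its span with Rabepk.

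The folding enzymes that work beside BiP moved with it: of 16 ER folding factors 11 were higher and 2 lower in NRAS tumors, and 9 were higher and none lower in PDGFB tumors. Among all genes 62.3% were called in NRAS tumors (32.0% higher) and 58.5% in PDGFB tumors (29.3% higher). Serpinh1, a collagen chaperone, had the largest change of the list, at 3.03 ± 0.32 (adjusted p = 4.14e-05) in NRAS tumors and 1.86 ± 0.32 (adjusted p = 0.000621) in PDGFB tumors. The protein disulfide isomerases Pdia4 and P4hb followed, Pdia4 at 1.80 ± 0.18 (adjusted p = 3.29e-05) in NRAS tumors and 1.37 ± 0.18 (adjusted p = 0.000149) in PDGFB tumors and P4hb at 1.79 ± 0.18 (adjusted p = 3.79e-05) in NRAS tumors and 1.49 ± 0.18 (adjusted p = 9.81e-05) in PDGFB tumors. The median over the list was 1.18 in NRAS tumors and 0.76 in PDGFB tumors, beside 0.01 and 0.04 for all genes. The ER exchange factor Hyou1, of the Hsp70 co-chaperone list and named with its values known, had 0.44 ± 0.16 (adjusted p = 0.0294) in NRAS tumors and 0.06 ± 0.16 (adjusted p = 0.75) in PDGFB tumors. The difference between the tumors, 0.37 ± 0.14 (adjusted p = 0.0767), did not pass.

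Other ER members did not follow. Dnajc3, which also curbs the ER stress kinase Perk, was at 0.28 ± 0.12 (adjusted p = 0.0616) in NRAS tumors and 0.04 ± 0.12 (adjusted p = 0.821) in PDGFB tumors. The NRAS value passed without PDGFB tumor 2 (0.28, adjusted p = 0.0448) or PDGFB tumor 4 (0.28, adjusted p = 0.042). Dnajc10, a disulfide reductase, had 44.4, 35.4, 39.3 and 51.2 FPKM in NRAS tumors, 38.3, 44.1, 37.98 and 36.2 FPKM in PDGFB tumors and 34.4, 34.995 and 30.4 FPKM in normal brain. Its call in NRAS tumors, 0.34 ± 0.14 (adjusted p = 0.049), ended in 8 of the 11 fits that left out a library, with adjusted p up to 0.169 without normal brain 3 (0.27). It also ended with the title series in the model (0.25, adjusted p = 0.222) and with FPKM rescaled without small RNA genes (0.19, adjusted p = 0.268). Hspa13, a short Hsp70 of the ER, had 0.27 ± 0.20 (adjusted p = 0.258) in NRAS tumors and 0.37 ± 0.20 (adjusted p = 0.125) in PDGFB tumors, and without PDGFB tumor 4 the second reached 0.55 (adjusted p = 0.00905). Of the 8 members placed in the ER, a grouping made with the values known, 4 were higher in NRAS tumors, and 3 were higher and 1 lower in PDGFB tumors. That is 50% called in either direction in each comparison, beside 62.3% of all genes in NRAS tumors and 58.5% in PDGFB tumors. Of all genes 32.0% were higher in NRAS tumors and 29.3% in PDGFB tumors. With 8 members such shares are coarse, and they were not tested.

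The ER stress element, CCAAT and CCACG parted by 9 bases of any kind, is the site through which ATF6 acts. It occurs in 39 of 32851 promoter windows (0.119%) and in 3 of the 78 windows here, those of Hspa5, Hsp90b1 and Dnajc3, shown with the matches in capitals since only the first and second of these genes passed the test. Both strands were searched, for exact matches only. CCAAT, which the element contains, is by itself in 37.4% of all windows and 39.7% of these.
Hspa5: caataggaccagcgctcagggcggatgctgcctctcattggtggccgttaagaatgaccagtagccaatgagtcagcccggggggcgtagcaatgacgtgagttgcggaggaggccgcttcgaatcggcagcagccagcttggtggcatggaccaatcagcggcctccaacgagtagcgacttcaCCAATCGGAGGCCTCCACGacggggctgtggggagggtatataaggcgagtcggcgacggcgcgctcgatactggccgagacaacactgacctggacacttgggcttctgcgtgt
Hsp90b1: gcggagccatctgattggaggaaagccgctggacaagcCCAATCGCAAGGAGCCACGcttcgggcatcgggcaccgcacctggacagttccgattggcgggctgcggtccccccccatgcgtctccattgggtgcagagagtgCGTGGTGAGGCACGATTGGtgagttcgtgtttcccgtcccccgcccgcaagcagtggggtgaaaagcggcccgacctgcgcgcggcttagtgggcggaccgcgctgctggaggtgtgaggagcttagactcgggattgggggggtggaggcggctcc
Dnajc3: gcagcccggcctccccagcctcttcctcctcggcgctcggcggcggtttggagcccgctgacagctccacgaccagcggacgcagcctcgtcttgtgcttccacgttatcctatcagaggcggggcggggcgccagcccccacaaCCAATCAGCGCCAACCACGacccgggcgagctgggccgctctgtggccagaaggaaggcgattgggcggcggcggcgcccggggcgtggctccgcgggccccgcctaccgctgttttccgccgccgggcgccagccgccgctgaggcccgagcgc
The windows are chr2:34771840-34772139 (plus strand), chr10:86705395-86705694 (minus strand) and chr14:118937682-118937981 (plus strand) of GRCm38.p6. Hsp90b1 holds the element at bases 39 to 57 and, on the other strand, at bases 144 to 162. Hspa5 holds it at bases 186 to 204 and Dnajc3 at bases 146 to 164. Binding by ATF6 was not measured.

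**Figure D2:**
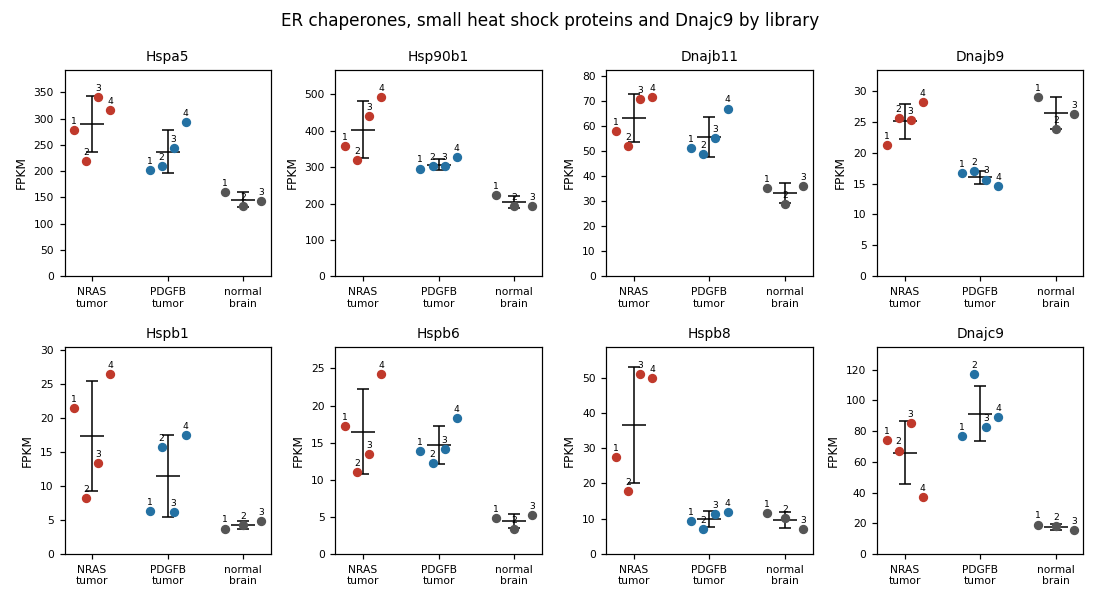
FPKM of 3 ER chaperones, the ER J-protein Dnajb9, 3 small heat shock proteins and the histone J-protein Dnajc9 in each library, with replicate numbers at the points and bars for the mean and SD of 4 NRAS tumors, 4 PDGFB tumors and 3 normal brains. Hspb8 is high in NRAS tumors alone, at 17.9 to 50.9 FPKM, and Dnajb9 is low in PDGFB tumors alone, at 14.6 to 17.01 FPKM.

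The cytosolic Hsp90 genes parted. Hsp90aa1, the stress-inducible form, was at 353, 374, 368 and 413 FPKM in the NRAS tumors, 338, 292, 312 and 367 FPKM in the PDGFB tumors and 639, 541 and 587 FPKM in normal brain. Every tumor lay below every normal brain, with log2 fold changes of -0.64 ± 0.14 (adjusted p = 0.00228) in NRAS tumors and -0.85 ± 0.14 (adjusted p = 0.000464) in PDGFB tumors. Within the title number series of the normal brains the NRAS value was -0.69 (adjusted p = 0.0543). Hsp90ab1, the constitutive form, was at 793, 765, 886 and 889 FPKM in the NRAS tumors, 765, 693, 799 and 832 FPKM in the PDGFB tumors and 788, 734 and 770.5 FPKM in normal brain. The groups overlapped, with 95% intervals of the log2 fold change at -0.21 to 0.46 in NRAS tumors and -0.32 to 0.35 in PDGFB tumors. The level of Hsp90aa1 relative to Hsp90ab1 in the same library does not depend on library scaling. It was 0.415 to 0.489 in NRAS tumors and 0.390 to 0.442 in PDGFB tumors, against 0.737 to 0.811 in normal brain. A two-sided exact permutation test gave p = 0.0571 for either tumor, the smallest that 4 against 3 libraries allow (0.098 adjusted over 24 tests of 8 ratios). Under quantile normalization Hsp90ab1 was also called lower, at -0.44 (adjusted p = 0.0311) for NRAS tumors and -0.59 (adjusted p = 0.00831) for PDGFB tumors.

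Co-chaperones of Hsp90 were mixed, with 3 of 15 higher and 4 lower in NRAS tumors and 2 higher and 3 lower in PDGFB tumors. Of all genes 32.0% were higher and 30.3% lower in NRAS tumors, and 29.3% were higher and 29.2% lower in PDGFB tumors. The shares of these co-chaperones lie below that background. Cdc37l1, a relative of the kinase adaptor Cdc37, was lower at -0.97 ± 0.12 (adjusted p = 0.000127) in NRAS tumors and -0.73 ± 0.12 (adjusted p = 0.000545) in PDGFB tumors. Ptges3, or p23, which holds Hsp90 closed, was higher at 0.77 ± 0.15 (adjusted p = 0.00157) in NRAS tumors and 0.78 ± 0.15 (adjusted p = 0.00142) in PDGFB tumors. The immunophilin Fkbp5, a brake on steroid receptors, was higher at 0.77 ± 0.22 (adjusted p = 0.0101) in NRAS tumors and 1.02 ± 0.22 (adjusted p = 0.00215) in PDGFB tumors. Of 4 heat shock factor genes and regulators tested none was higher and 2 lower in NRAS tumors, and 1 was higher and 1 lower in PDGFB tumors. This list is too short to set against the shares of all genes. Hsf1, the master factor of the heat shock response, was not past the threshold in NRAS tumors, at 0.28 ± 0.13 (adjusted p = 0.0799), or PDGFB tumors, at 0.27 ± 0.13 (adjusted p = 0.104), a gene named with its values known. Hsf4 was lower, at -1.10 ± 0.34 (adjusted p = 0.0148) in NRAS tumors and -1.73 ± 0.34 (adjusted p = 0.00132) in PDGFB tumors.

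Among cytosolic Hsp70 genes the most abundant did not pass. Hspa8, which also strips clathrin from vesicles, was at 1393, 1289.7, 1334 and 1661 FPKM in the NRAS tumors, 1311, 1269, 1346 and 1608 FPKM in the PDGFB tumors and 1475, 1203 and 1348 FPKM in normal brain. Tumors and normal brain overlapped, and the 95% intervals of its log2 fold change were -0.35 to 0.50 in NRAS tumors and -0.38 to 0.47 in PDGFB tumors. Under quantile normalization it was called lower, at -0.46 (adjusted p = 0.0444) for NRAS tumors and -0.52 (adjusted p = 0.0297) for PDGFB tumors. Hspa4, an Hsp110 exchange factor, had 95% intervals of -0.22 to 0.22 in NRAS tumors and -0.18 to 0.27 in PDGFB tumors.

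Relatives of these genes were lower. Hspa4l, a further Hsp110 gene close to Hspa4, was at 14.1, 17.7, 11.2 and 17.8 FPKM in the NRAS tumors, 20.5, 15.2, 16.02 and 14.4 FPKM in the PDGFB tumors and 40.8, 38.2 and 42.1 FPKM in normal brain, with log2 fold changes of -1.38 ± 0.17 (adjusted p = 0.000122) in NRAS tumors and -1.25 ± 0.17 (adjusted p = 0.000181) in PDGFB tumors. Within a library it stood at 0.145 to 0.259 of Hspa4 in NRAS tumors and 0.204 to 0.260 in PDGFB tumors, against 0.545 to 0.568 in normal brain (exact permutation p = 0.0571 each, the smallest possible). Hsph1, or Hsp105, was at 57.6, 90.6, 62.6 and 64.02 FPKM in the NRAS tumors, 75.1, 38.9, 62.3 and 62.1 FPKM in the PDGFB tumors and 122, 102 and 116 FPKM in normal brain, with -0.73 ± 0.22 (adjusted p = 0.0124) in NRAS tumors and -0.95 ± 0.22 (adjusted p = 0.00317) in PDGFB tumors. Hspa2, known for its role in spermatogenesis, was at -0.93 ± 0.16 (adjusted p = 0.000618) in NRAS tumors and -1.07 ± 0.16 (adjusted p = 0.000272) in PDGFB tumors. No tumor overlapped normal brain for Hspa4l, Hsph1 or Hspa2. With the title series in the model Hsph1 in PDGFB tumors did not pass (-0.76, adjusted p = 0.127), nor did it in NRAS tumors (-0.64, adjusted p = 0.0686).

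The steepest fall of an Hsp70 gene was that of Hspa12a, a distant relative that lacks the usual client-binding domain. Hspa12a was at 3.49, 17.9, 7.02 and 11.2 FPKM in the NRAS tumors, 11.3, 3.37, 9.24 and 12.5 FPKM in the PDGFB tumors and 54.7, 56.4 and 69.1 FPKM in normal brain. All tumors were far below normal brain, with the mean of NRAS tumors at 0.165 and that of PDGFB tumors at 0.151 of the normal mean, log2 fold changes of -2.67 ± 0.47 (adjusted p = 0.000795) in NRAS tumors and -2.71 ± 0.47 (adjusted p = 0.000687) in PDGFB tumors. Its paralog Hspa12b, known from endothelium, was at 2.51, 1.77, 1.53 and 4.86 FPKM in the NRAS tumors, 2.35, 2.02, 1.89 and 2.57 FPKM in the PDGFB tumors and 3.09, 2.58 and 3.34 FPKM in normal brain, and neither comparison passed (-0.20 ± 0.26 (adjusted p = 0.507) in NRAS tumors and -0.32 ± 0.26 (adjusted p = 0.306) in PDGFB tumors). Without NRAS tumor 4 the first of these was past the threshold (-0.46, adjusted p = 0.0437).

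**Figure D3:**
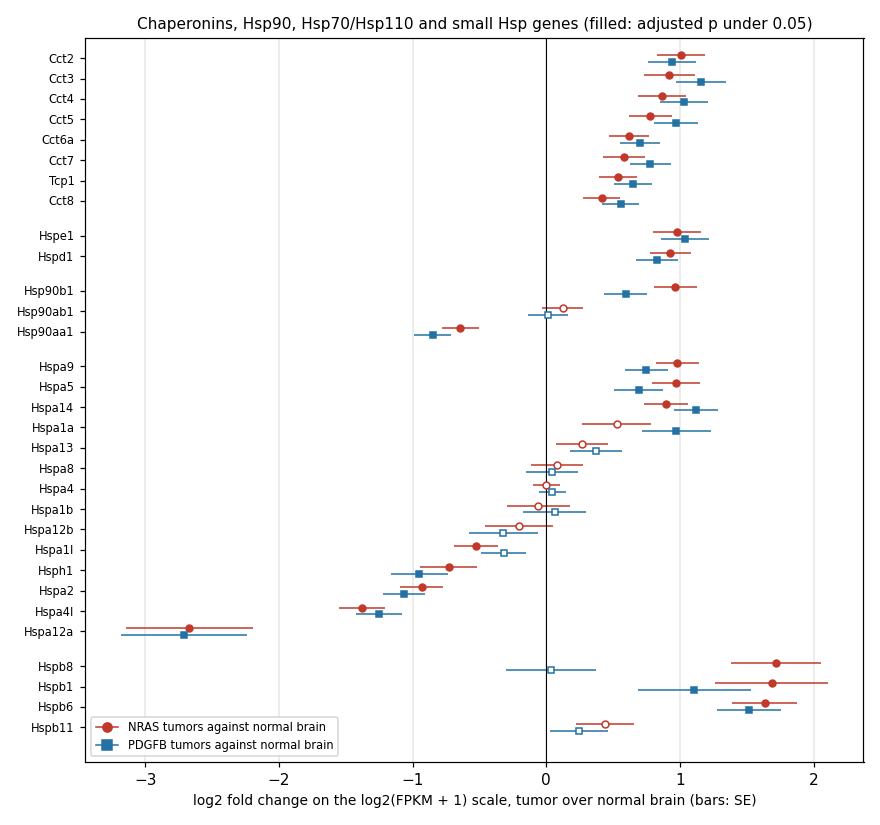
Log2 fold change, computed on log2(FPKM + 1) and with SE bars, of 31 chaperonin, Hsp90, Hsp70, Hsp110 and small heat shock protein genes in NRAS tumors (circles) and PDGFB tumors (squares), each against the same 3 normal brains; filled symbols passed an adjusted p of 0.05. CCT and the mitochondrial chaperonin lie to the right, Hsp90aa1, Hsph1, Hspa2, Hspa4l and Hspa12a to the left, and Hspa8, Hspa4 and Hsp90ab1 near 0.

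Hspa14, a cytosolic Hsp70, was higher in both tumor groups. It works at the ribosome with the J-protein Dnajc2, where both receive nascent chains. Hspa14 was at 42.9, 28.8, 42.8 and 41.1 FPKM in the NRAS tumors, 39.9, 55.4, 40.2 and 46.4 FPKM in the PDGFB tumors and 21.4, 19.9 and 19.4 FPKM in normal brain, with log2 fold changes of 0.89 ± 0.16 (adjusted p = 0.000929) in NRAS tumors and 1.12 ± 0.16 (adjusted p = 0.000249) in PDGFB tumors. Dnajc2 was at 35.8, 25.6, 34.3 and 46.9 FPKM in the NRAS tumors, 27.1, 33.5, 27.9 and 35.04 FPKM in the PDGFB tumors and 18.8, 18.6 and 18.8 FPKM in normal brain, with 0.86 ± 0.18 (adjusted p = 0.00177) in NRAS tumors and 0.68 ± 0.18 (adjusted p = 0.00644) in PDGFB tumors. Both partners were above normal brain in every tumor. When the title series was in the model, Dnajc2 in PDGFB tumors was at 0.29 (adjusted p = 0.406).

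The classical stress-inducible Hsp70 genes, Hspa1a and Hspa1b, lie side by side on chromosome 17 and are nearly identical, so the split of reads between them is uncertain. Both were close to the filter: Hspa1a was at 1.54, 0.688, 1.13 and 0.489 FPKM in the NRAS tumors, 1.94, 0.903, 1.18 and 2.80 FPKM in the PDGFB tumors and 0.465, 0.347 and 0.196 FPKM in normal brain, and Hspa1b at 1.51, 1.04, 0.825 and 0.696 FPKM in the NRAS tumors, 1.27, 0.649, 0.828 and 2.26 FPKM in the PDGFB tumors and 1.31, 1.09 and 0.863 FPKM in normal brain. Hspa1a passed the filter through tumor libraries alone, so its higher level there was a condition of its being tested. The log2 fold change was 0.53 ± 0.26 (adjusted p = 0.095) in NRAS tumors and 0.97 ± 0.26 (adjusted p = 0.00742) in PDGFB tumors for Hspa1a, and -0.06 ± 0.24 (adjusted p = 0.839) in NRAS tumors and 0.06 ± 0.24 (adjusted p = 0.835) in PDGFB tumors for Hspa1b. Hspa1l, their neighbour, was at -0.53 in NRAS tumors (adjusted p = 0.0166), a call lost without normal brain 1 (-0.52, adjusted p = 0.0538) or normal brain 2 (-0.52, adjusted p = 0.0563), or with the title series in the model (-0.40, adjusted p = 0.0962). In that model Hspa1a in PDGFB tumors was at 1.19 (adjusted p = 0.0555). Just below the filter were Hspb3 and Hspb9, which reached 1 FPKM in 2 libraries each. The others outside it were Cct6b, Dnajb7, Dnajb8, Dnajb13, Dnajc22, Hspb2 and Hspb7.

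Of 11 exchange factors and co-chaperones of Hsp70, 3 were higher and 3 lower in each tumor group. Among all genes 32.0% were higher and 30.3% lower in NRAS tumors, and 29.3% and 29.2% in PDGFB tumors. The counts of this list are near that background. Bag3, which links Hsp70 to Hspb8 for selective autophagy, had the largest change: it averaged 19.5 ± 2.91 FPKM in NRAS tumors, 17.2 ± 1.81 FPKM in PDGFB tumors and 3.55 ± 0.262 FPKM in normal brain, with 2.16 ± 0.14 (adjusted p = 2.64e-06) in NRAS tumors and 2.001 ± 0.14 (adjusted p = 3.63e-06) in PDGFB tumors. St13, or Hip, which steadies the bound state of Hsp70, was at 0.57 ± 0.11 (adjusted p = 0.0013) in NRAS tumors and 0.64 ± 0.11 (adjusted p = 0.000632) in PDGFB tumors. Bag4 was lower, at -0.78 ± 0.15 (adjusted p = 0.00112) in NRAS tumors and -0.71 ± 0.15 (adjusted p = 0.00179) in PDGFB tumors.

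Small heat shock proteins hold damaged proteins without ATP. Hspb8 was higher in NRAS tumors, at 27.4, 17.9, 50.9 and 49.96 FPKM, against 9.35, 7.02, 11.4 and 11.8 FPKM in PDGFB tumors and 11.6, 10.2 and 7.16 FPKM in normal brain. Every NRAS tumor exceeded every other library, and NRAS tumors 3 and 4 were the highest. The log2 fold change was 1.72 ± 0.34 (adjusted p = 0.00142) against normal brain and 1.69 ± 0.31 (adjusted p = 0.0035) against PDGFB tumors, which themselves overlapped normal brain, at 0.03 ± 0.34 (adjusted p = 0.941). With the title series in the model the value for PDGFB tumors against normal brain was -1.12 (adjusted p = 0.0394). The series difference in that fit comes from NRAS tumors alone, of which 3 and 4 were the highest. The value is thus no direct comparison of PDGFB tumors with normal brain.

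Hspb6, or Hsp20, was higher in either tumor, at 17.2, 11.04, 13.5 and 24.2 FPKM in the NRAS tumors, 13.9, 12.3, 14.1 and 18.3 FPKM in the PDGFB tumors and 4.81, 3.41 and 5.23 FPKM in normal brain, with 1.63 ± 0.24 (adjusted p = 0.0003) in NRAS tumors and 1.52 ± 0.24 (adjusted p = 0.000416) in PDGFB tumors. Hspb1, or Hsp27, was at 21.4, 8.24, 13.4 and 26.5 FPKM in the NRAS tumors, 6.35, 15.7, 6.18 and 17.6 FPKM in the PDGFB tumors and 3.75, 4.23 and 4.84 FPKM in normal brain. All tumors were above normal brain, but their spread was wide: the change was 1.69 ± 0.42 (adjusted p = 0.0052) in NRAS tumors, and in PDGFB tumors 1.11 ± 0.42 (adjusted p = 0.0415), a call lost without PDGFB tumor 2 (0.92, adjusted p = 0.102), PDGFB tumor 4 (0.87, adjusted p = 0.105) or any of the normal brains (1.03 to 1.18, adjusted p = 0.0736 to 0.11). PDGFB tumors 2 and 4 were the high ones. The PDGFB value was 0.64 with the title series in the model (adjusted p = 0.495) and 1.02 under quantile normalization (adjusted p = 0.0613), and neither passed. Testing all genes without a filter on low values also ended that call (adjusted p = 0.0607). Cryab, the alpha crystallin of glia, was at -0.32 ± 0.30 (adjusted p = 0.373) in NRAS tumors and -1.03 ± 0.30 (adjusted p = 0.0127) in PDGFB tumors. Hspb11, whose product belongs to the intraflagellar transport complex of cilia, did not pass in NRAS tumors, at 0.44 ± 0.22 (adjusted p = 0.0957), or PDGFB tumors, at 0.25 ± 0.22 (adjusted p = 0.351), though it did in NRAS tumors without NRAS tumor 2 (0.55, adjusted p = 0.0483) or PDGFB tumor 4 (0.44, adjusted p = 0.0403). Perlecan (Hspg2) was at 6.04, 4.88, 7.48 and 9.36 FPKM in the NRAS tumors, 7.74, 8.88, 5.37 and 4.39 FPKM in the PDGFB tumors and 0.872, 1.42 and 1.35 FPKM in normal brain, with 1.82 ± 0.25 (adjusted p = 0.000198) in NRAS tumors and 1.75 ± 0.25 (adjusted p = 0.000225) in PDGFB tumors.

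Macrophage and microglia markers moved with Hspb8: all 6 were higher in NRAS tumors against normal brain and against PDGFB tumors, and their sum was 195, 159.7, 367 and 435 FPKM in NRAS tumors 1 to 4, 35.4 to 93.1 FPKM in PDGFB tumors and 52.1 to 61.5 FPKM in normal brain. T cell markers moved likewise, with all 4 higher in NRAS tumors against normal brain and 3 of 4 higher against PDGFB tumors. Their sum was 14.8, 3.89, 24.4 and 101 FPKM in NRAS tumors 1 to 4, 0.231 to 0.777 FPKM in PDGFB tumors and 0.0993 to 0.165 FPKM in normal brain. The astrocyte marker sum was 855 to 1517 FPKM in NRAS tumors, 322 to 827 FPKM in PDGFB tumors and 725 to 811 FPKM in normal brain, but the list did not move as one. Of its 6 genes 1 was higher and 1 lower in NRAS tumors against normal brain, and 2 were higher and none lower against PDGFB tumors. Gfap, the filament protein of reactive astrocytes, averaged 641 ± 254 FPKM in NRAS tumors and 121 ± 16.7 FPKM in normal brain, while the glutamate transporter gene Slc1a2 averaged 99.9 ± 56.3 FPKM in NRAS tumors and 277 ± 49.5 FPKM in normal brain (SD). No macrophage or astrocyte marker was listed at 0 in any library, whereas each of the T cell markers was so in at least 1 normal brain and Cd3d in at least 1 PDGFB tumor. The part of these cell types in the level of Hspb8 was not tested.

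J-protein genes moved both ways: 7 of 39 were higher and 15 lower in NRAS tumors, and 6 were higher and 19 lower in PDGFB tumors. The share called in either direction, 56.4% in NRAS tumors and 64.1% in PDGFB tumors, was near the 62.3% and 58.5% of all genes in those comparisons. By direction, 32.0% of all genes were higher and 30.3% lower in NRAS tumors, and 29.3% and 29.2% in PDGFB tumors. The higher shares of J-protein genes lay below these values and the lower shares above them, which was not tested. The median log2 fold change of the J-protein genes was -0.14 in NRAS tumors and -0.23 in PDGFB tumors. Dnajc9, which chaperones histones H3 and H4, had the largest rise, at 74.4, 67.3, 85.5 and 36.996 FPKM in the NRAS tumors, 76.8, 117, 82.9 and 88.9 FPKM in the PDGFB tumors and 19.2, 18.5 and 15.7 FPKM in normal brain. Even the lowest tumor, NRAS tumor 4, was above normal brain, and the mean of NRAS tumors was 3.71 times and that of PDGFB tumors 5.14 times that of normal brain, log2 fold changes of 1.78 ± 0.25 (adjusted p = 0.000235) in NRAS tumors and 2.28 ± 0.25 (adjusted p = 4.87e-05) in PDGFB tumors. All 9 cell cycle markers were also higher in either tumor, and their part in the change of Dnajc9 was not tested.

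Dnajc24, which serves the diphthamide modification of elongation factor eEF2, was at 14.4, 11.999, 12.4 and 9.19 FPKM in the NRAS tumors, 18.1, 17.5, 17.8 and 20.7 FPKM in the PDGFB tumors and 8.41, 6.36 and 6.29 FPKM in normal brain. Its change against normal brain was 0.69 ± 0.16 (adjusted p = 0.00334) in NRAS tumors and 1.29 ± 0.16 (adjusted p = 9.58e-05) in PDGFB tumors. Dnajc25 was a low-level gene at 3.999, 2.79, 3.87 and 4.59 FPKM in the NRAS tumors, 2.68, 2.95, 2.80 and 3.21 FPKM in the PDGFB tumors and 1.78, 1.99 and 1.47 FPKM in normal brain, with 0.80 ± 0.16 (adjusted p = 0.00157) in NRAS tumors and 0.51 ± 0.16 (adjusted p = 0.0174) in PDGFB tumors. Without normal brain 3 the second of these missed the threshold (0.44, adjusted p = 0.079), as it did with the title series in the model (0.25, adjusted p = 0.453).

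**Figure D4:**
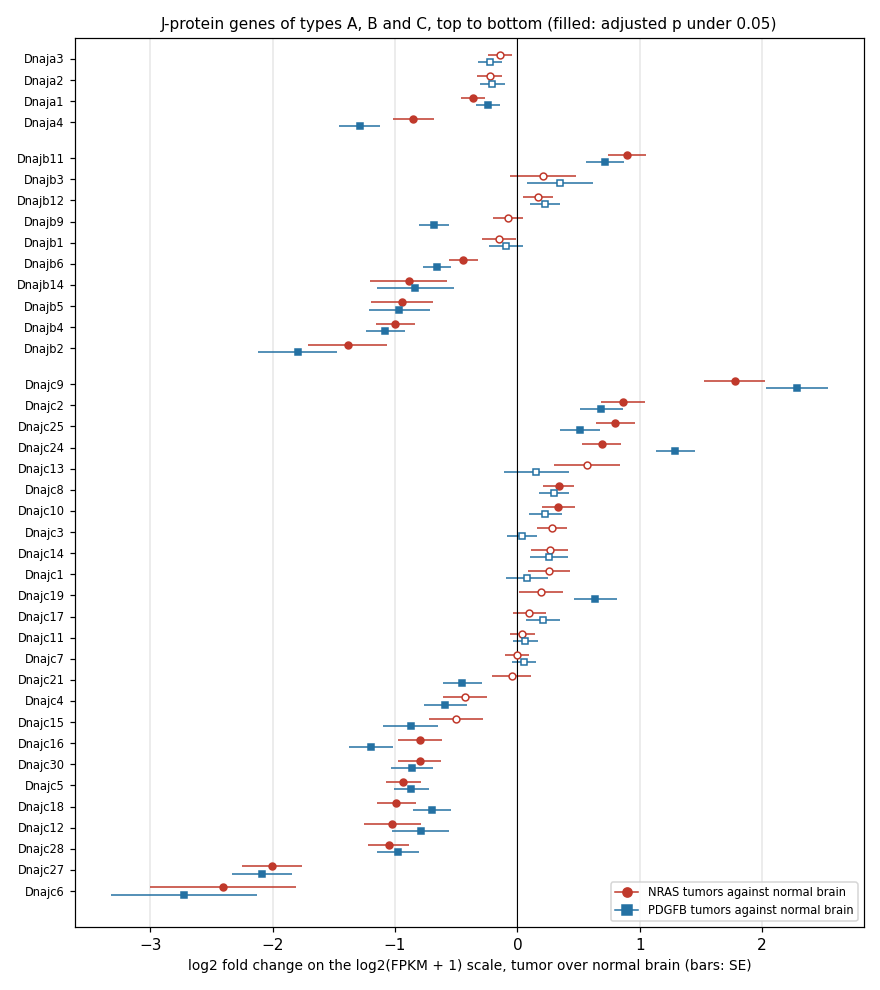
Log2 fold change, computed on log2(FPKM + 1) and with SE bars, of the 39 J-protein genes by type (A, B and C from top to bottom) in NRAS tumors (circles) and PDGFB tumors (squares), each against the same 3 normal brains; filled symbols passed an adjusted p of 0.05. Dnajc9 lies farthest right and Dnajc6 farthest left in both comparisons.

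The J-proteins that fell furthest include several known from neurons. Dnajc6 encodes auxilin, which with Hspa8 strips clathrin from synaptic vesicles. It was at 7.26, 34.97, 14.3 and 16.8 FPKM in the NRAS tumors, 27.3, 3.15, 16.7 and 15.3 FPKM in the PDGFB tumors and 85.9999, 83.8 and 96.3 FPKM in normal brain, and the mean of NRAS tumors was 0.207 and that of PDGFB tumors 0.176 of the normal mean. The log2 fold change was -2.41 ± 0.60 (adjusted p = 0.00493) in NRAS tumors and -2.72 ± 0.60 (adjusted p = 0.00251) in PDGFB tumors, not past the threshold in PDGFB tumors with the title series in the model (-2.66, adjusted p = 0.0689). Dnajc5 encodes cysteine string protein, which keeps synaptic vesicle proteins folded. It was at 39.5, 51.7, 52.1 and 42.6 FPKM in the NRAS tumors, 54.4, 43.8, 55.8 and 41.1 FPKM in the PDGFB tumors and 86.4, 88.2 and 92.2 FPKM in normal brain, with -0.93 ± 0.14 (adjusted p = 0.000372) in NRAS tumors and -0.87 ± 0.14 (adjusted p = 0.000525) in PDGFB tumors.

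Dnajb2, a J-protein of neurons that sorts clients to the proteasome, was at 11.8, 27.6, 14.9 and 23.4 FPKM in the NRAS tumors, 16.6, 7.73, 13.3 and 19.7 FPKM in the PDGFB tumors and 55.8, 42.5 and 51.7 FPKM in normal brain, with -1.39 ± 0.32 (adjusted p = 0.00355) in NRAS tumors and -1.79 ± 0.32 (adjusted p = 0.000816) in PDGFB tumors. Dnajc27, a small GTPase with a J-domain, was at 6.35, 16.2, 8.05 and 9.75 FPKM in the NRAS tumors, 11.3, 7.45, 8.70 and 8.63 FPKM in the PDGFB tumors and 42.9, 41.8 and 39.1 FPKM in normal brain, with -2.005 ± 0.25 (adjusted p = 0.000108) in NRAS tumors and -2.09 ± 0.25 (adjusted p = 7.13e-05) in PDGFB tumors. For these 4 genes no tumor overlapped normal brain. Dnajc12, which assists enzymes of monoamine synthesis, had -1.02 ± 0.23 (adjusted p = 0.00306) in NRAS tumors and -0.79 ± 0.23 (adjusted p = 0.0127) in PDGFB tumors, the second at -0.47 (adjusted p = 0.05) without normal brain 1 and at -0.61 with the title series in the model (adjusted p = 0.244). Within the series of the normal brains its NRAS value was -0.93 (adjusted p = 0.064). Dnajc28 in NRAS tumors, at -1.05 ± 0.17 (adjusted p = 0.000468), and Dnaja4, at -1.29 ± 0.17 (adjusted p = 0.000138), and Dnajc16, at -1.20 ± 0.18 (adjusted p = 0.000299), in PDGFB tumors complete the 5 lowest of each comparison.

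Neuron markers fell as well, 9 of 10 in NRAS tumors and all 10 in PDGFB tumors, with medians of -2.14 in NRAS tumors and -2.88 in PDGFB tumors. Markers of other cell types fell too: all 6 markers of myelinating oligodendrocytes were lower in NRAS tumors and 5 of 6 in PDGFB tumors, with medians of -2.81 in NRAS tumors and -2.98 in PDGFB tumors. Their sum was 251 to 1504 FPKM in NRAS tumors, 186 to 2135 FPKM in PDGFB tumors and 2276 to 7013 FPKM in normal brain. Markers of ependyma were lower for 4 of 5 tested in NRAS tumors and all 5 in PDGFB tumors, and those of choroid plexus for all 4 in NRAS tumors and 3 of 4 in PDGFB tumors. Not every list fell. All 4 markers of oligodendrocyte progenitors were higher in either tumor, with medians of 1.45 in NRAS tumors and 3.87 in PDGFB tumors. No marker of these lists was at 0 in any library. Among NRAS tumors number 2 had the highest neuron marker sum, 1245 FPKM, and the highest Dnajc6, Hspa12a, Dnajc27, Dnajb2 and Hsph1. Among PDGFB tumors number 2 had the lowest sum, 115 FPKM, and the lowest Dnajc6, Hspa12a, Dnajc27, Dnajb2 and Hsph1. The lowest NRAS tumor sum, 273 FPKM, was that of tumor 1, which was also lowest in Dnajc6, Hspa12a, Dnajc27, Dnajb2 and Hsph1. Not every gene followed this order. Dnajc5 was highest in NRAS tumor 3 and lowest in PDGFB tumor 4, and Hspa4l was highest in NRAS tumor 4 and lowest in NRAS tumor 3 and PDGFB tumor 4 of their groups. PDGFB tumor 1 had the highest neuron sum of its group, 681 FPKM, yet Hspa12a and Dnajb2 were highest in PDGFB tumor 4. The myelinating oligodendrocyte sum, too, was highest of its group in NRAS tumor 2, at 1504 FPKM. That sum was lowest in NRAS tumor 3 (251 FPKM) and PDGFB tumor 3 (186 FPKM) of their groups, with PDGFB tumor 2 at 214 FPKM. The part of these cell types in the changes was not tested.

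**Figure D5:**
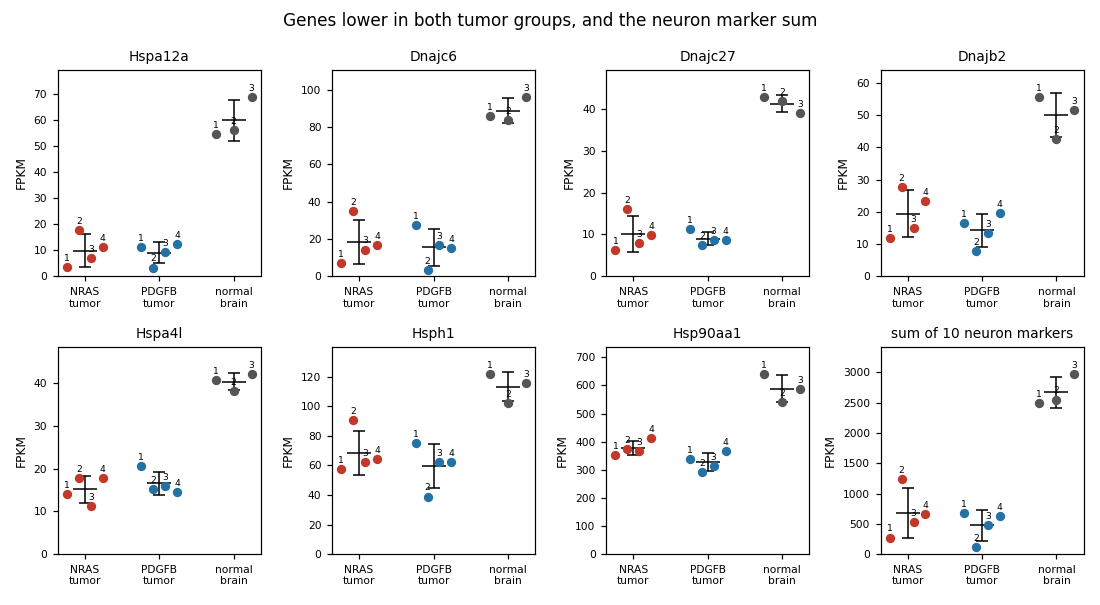
FPKM of 7 genes that were lower in tumors, and the summed FPKM of 10 neuron markers, in each library, with replicate numbers at the points and bars for the mean and SD of 4 NRAS tumors, 4 PDGFB tumors and 3 normal brains. NRAS tumor 2 tops its group, and PDGFB tumor 2 is the bottom of its group, in Hspa12a, Dnajc6, Dnajc27, Dnajb2, Hsph1 and the neuron sum; Hspa4l does not follow that order, and Hsp90aa1 spans only 353 to 413 FPKM in NRAS tumors.

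The cytosolic J-proteins Dnajb6, Dnaja1, Dnaja2, Dnajb1 and Dnajc7 had smaller fold changes than Dnajc5 and Dnajc6. This does not hold for all J-proteins of types A and B. In NRAS tumors Dnajb4 was at -0.998 and Dnajb5 at -0.94, and in PDGFB tumors Dnaja4 was at -1.29. Dnajb6, which keeps polyglutamine proteins soluble, was at 71.2, 85.4, 85.9 and 98.2 FPKM in the NRAS tumors, 70.3, 73.9, 70.2 and 77.3 FPKM in the PDGFB tumors and 118, 113 and 115 FPKM in normal brain, with -0.44 ± 0.12 (adjusted p = 0.00698) in NRAS tumors and -0.66 ± 0.12 (adjusted p = 0.000772) in PDGFB tumors. Dnaja1, a partner of Hspa8, was at -0.36 ± 0.10 (adjusted p = 0.00672) in NRAS tumors and -0.24 ± 0.10 (adjusted p = 0.0486) in PDGFB tumors. The second of these calls ended in 9 of the 11 fits that left out a library, with values of -0.21 (without normal brain 1) to -0.28 (without normal brain 2) and adjusted p = 0.0575 (without PDGFB tumor 4) to 0.159 (without normal brain 1). The PDGFB value was -0.12 (adjusted p = 0.591) and the NRAS value -0.30 (adjusted p = 0.0502) with the title series in the model, and the NRAS value did not pass within the series of the normal brains (adjusted p = 0.143). Dnaja2 had -0.23 ± 0.10 (adjusted p = 0.0799) in NRAS tumors and -0.20 ± 0.10 (adjusted p = 0.116) in PDGFB tumors. With FPKM rescaled to an FPKM sum without small RNA genes both passed, at -0.37 (adjusted p = 0.0113) for NRAS tumors and -0.36 (adjusted p = 0.0157) for PDGFB tumors. Dnajb1, the classical heat-inducible Hsp40, was at 17.6, 18.02, 19.6 and 15.8 FPKM in the NRAS tumors, 15.4, 20.3, 17.3 and 21.3 FPKM in the PDGFB tumors and 22.2, 19.8 and 17.4 FPKM in normal brain, with 95% intervals of -0.46 to 0.16 in NRAS tumors and -0.40 to 0.21 in PDGFB tumors. Dnajc7, which bridges Hsp70 and Hsp90, was at 77.8 to 92.6 FPKM in NRAS tumors, 81.8 to 89.7 FPKM in PDGFB tumors and 79.3 to 85.3 FPKM in normal brain, with 95% intervals of -0.22 to 0.22 in NRAS tumors and -0.17 to 0.27 in PDGFB tumors.

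The remaining J-proteins are named here with their values known. Dnajb4, Dnajb5, Dnajb14, Dnajc16, Dnajc18, Dnajc30 and Dnaja4 in NRAS tumors were lower, with log2 fold changes of -0.79 to -0.998, and Dnajb4, Dnajb5, Dnajb14, Dnajc4, Dnajc15, Dnajc18, Dnajc21, Dnajc28 and Dnajc30 in PDGFB tumors were lower, with -0.45 to -1.08. Dnajc8 was higher in NRAS tumors, at 0.34 ± 0.12 (adjusted p = 0.0335), and was at 0.30 ± 0.12 (adjusted p = 0.0535) in PDGFB tumors. Of the 9 lower calls just named in PDGFB tumors, Dnajb4 alone passed with the title series in the model (-0.98, adjusted p = 0.0235). The other 8 had values of -0.53 (Dnajc18) to -1.30 (Dnajb14) there, with adjusted p = 0.0604 (Dnajc28) to 0.137 (Dnajb5 and Dnajc18). Dnajc8 in NRAS tumors was at 0.31 in that model (adjusted p = 0.115) and at 0.19 with FPKM rescaled without small RNA genes (adjusted p = 0.156), and Dnajb5 in NRAS tumors was at -0.90 within the series of the normal brains (adjusted p = 0.0772). Some calls depended on single libraries. Dnajc8 in NRAS tumors lost its call without NRAS tumor 1, 3 or 4 or any normal brain (0.29 to 0.37, adjusted p = 0.0503 to 0.119), and it gained one in PDGFB tumors without NRAS tumor 2 (0.30, adjusted p = 0.0404) or PDGFB tumor 1 (0.35, adjusted p = 0.0417). Dnajb14 lost its call in NRAS tumors without NRAS tumor 1 or 2 or normal brain 2 or 3 (-0.67 to -0.88, adjusted p = 0.0561 to 0.125). In PDGFB tumors it did so without PDGFB tumor 3 or 4 or normal brain 2 or 3 (-0.59 to -0.82, adjusted p = 0.0755 to 0.165). Dnajc21 in PDGFB tumors lost its call without PDGFB tumor 1 or 3 or any normal brain (-0.41 to -0.50, adjusted p = 0.0531 to 0.0987), and Dnajc4 without normal brain 1 (-0.50, adjusted p = 0.0666). In NRAS tumors Dnajc4 passed without NRAS tumor 4 (-0.49, adjusted p = 0.0455), PDGFB tumor 2 (-0.43, adjusted p = 0.0467) or PDGFB tumor 4 (-0.43, adjusted p = 0.0173), and Dnajc15 without PDGFB tumor 2 (-0.50, adjusted p = 0.0168) or PDGFB tumor 4 (-0.50, adjusted p = 0.0314). Dnajc30 shares 65.0% of its span with Bud23, Dnajc7 24.2% of its span with the myelin gene Cnp, and Dnajb3 lies wholly within spans of Ugt1a genes. Past neither threshold were Dnaja3, Dnajb3, Dnajb12, Dnajc1, Dnajc11, Dnajc13, Dnajc14 and Dnajc17, among which Dnajc13 passed in NRAS tumors without NRAS tumor 2 (0.79, adjusted p = 0.00964) and Dnajc14 in PDGFB tumors without PDGFB tumor 4 (0.37, adjusted p = 0.0358).

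Between the tumor groups few genes of the folding machinery passed. NRAS tumors were higher than PDGFB tumors for 2 of the 71 genes and lower for 1, which is 4.23% beside 26.6% of all genes (14.3% higher and 12.2% lower). Hspb8 was one, as given above. Dnajb9, an ER J-protein that calms the stress sensor IRE1, was at 21.2, 25.5, 25.3 and 28.1 FPKM in NRAS tumors, against 16.7, 17.01, 15.6 and 14.6 FPKM in PDGFB tumors, and normal brain had 29.1, 23.8 and 26.3 FPKM. PDGFB tumors were thus below all other libraries. The log2 fold change was 0.61 ± 0.11 (adjusted p = 0.00361) between NRAS and PDGFB tumors, -0.68 ± 0.12 (adjusted p = 0.000816) for PDGFB tumors against normal brain and -0.08 ± 0.12 (adjusted p = 0.612) for NRAS tumors against normal brain.

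Dnajc24 was lower in NRAS than in PDGFB tumors, at -0.60 ± 0.15 (adjusted p = 0.0128), with no overlap between those groups. The 8 CCT genes had log2 fold changes of -0.24 to 0.07 between NRAS and PDGFB tumors, and the widest 95% interval, that of Cct3, ran -0.62 to 0.15. Hsp90b1 was nearest to the threshold among chaperones other than J-proteins, at 0.37 ± 0.15 (adjusted p = 0.089), and passed without NRAS tumor 2 (0.47, adjusted p = 0.0256) and within the title number series that holds both tumors (0.60, adjusted p = 0.0409). Leaving out NRAS tumor 2 brought the number of genes higher in NRAS tumors to 5 in place of 2, and leaving out NRAS tumor 1 brought it to 4. Without NRAS tumor 2 or PDGFB tumor 1, 2 genes in place of 1 were lower.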

How the data were processed

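RNA sequencing of 4 NRAS tumors, 4 PDGFB tumors and 3 normal brains gave 1 table of FPKM, which the authors deposited. Per the submitters' processing notes TopHat2 2.0.13, Cufflinks 2.2.1 and mm10 were used; settings, annotation and strand: not given in the sources used here. Of 24347 rows, 27 with date names were left out. FPKM scales by the library total of fragments. Of the summed FPKM of a library, 1320 small RNA genes held 10.5% to 42.7% (10.51 to 42.75 per library). As FPKM also divides by transcript length, this is not their share of the fragments. The rescaling without small RNA genes used the summed FPKM of the other genes. Read depth is unknown; steps in values under 0.3 FPKM gave relative depths of 0.782 to 1, so low values rest on few reads.

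Genes with at least 1 FPKM in 3 or more libraries were tested on log2(FPKM + 1) by limma 3.58.1 (R 4.3.3) with an intensity trend, 1 fit over all 11 libraries and Benjamini-Hochberg adjustment over 14491 genes at 0.05. Fold changes understate low genes. Ratios were tested by two-sided exact permutation (scipy 1.17.1). The fit was tested on simulated data. The members and lists were chosen with earlier results of these data known, and the ER grouping with the members' values known. The naming rule took all members except J-proteins, of which it took the 5 highest and 5 lowest called per comparison and 11 listed genes, and up to 3 called genes per partner list. Alternatives covered the pseudocount, filter, scaling, trend, replicate and matched-pair blocks, title number series and each library left out.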

Additional observations from a re-analysis of the deposited data

Results flagged for a closer look

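Between NRAS and PDGFB tumors 3 of the 71 genes differed in limma, with log2 fold changes of 1.69 for Hspb8 (adjusted p = 0.0035), 0.61 for Dnajb9 (adjusted p = 0.00361) and -0.60 for Dnajc24 (adjusted p = 0.0128). All 4 NRAS tumors lay above all 4 PDGFB tumors for Hspb8 and Dnajb9, and below them for Dnajc24.

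Single libraries stood far from the rest of their group for 3 genes. Dnajc30 was at 19.9 FPKM in PDGFB tumor 4, with 12.99 to 13.5 FPKM in the other PDGFB tumors. Hspa14 was at 28.8 FPKM in NRAS tumor 2, with 41.1 to 42.9 FPKM in the other NRAS tumors. Hspa9 was at 199 FPKM in PDGFB tumor 2, with 142 to 148 FPKM in the other PDGFB tumors. Each gap exceeded Dixon's 95% critical value for 4 samples. Of 142 groups examined 3 did so, and chance gives about 1 in 20.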

How the results depend on the processing

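Leaving out 1 library at a time gave 22 to 27 genes higher and 19 to 23 lower in NRAS tumors against normal brain, 22 to 25 higher and 20 to 24 lower in PDGFB tumors against normal brain, and 2 to 5 higher and 1 to 2 lower in NRAS against PDGFB tumors. With the title series in the model the counts were 8 higher and 13 lower in PDGFB tumors against normal brain and 4 higher in NRAS against PDGFB tumors. Within a title number series 19 were higher and 16 lower in NRAS tumors against normal brain, and 3 higher and 1 lower in NRAS against PDGFB tumors. No such value was possible for PDGFB tumors against normal brain. NRAS against PDGFB tumors gave 3 lower under quantile normalization and 2 lower with FPKM rescaled without small RNA genes, which shifted the median of all genes by -0.13 in NRAS and -0.12 in PDGFB tumors against normal brain. Under quantile normalization Hspa8 reversed to -0.46 in NRAS tumors and -0.52 in PDGFB tumors, and Hsp90ab1 to -0.44 and -0.59. With the series covariate, whose difference comes from NRAS tumors alone, Hspb8 reversed to -1.12 in PDGFB tumors against normal brain. The cause was not tested.

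Replicate numbers did not pair the samples: deviations of libraries with the same number correlated at -0.499 to 0.158. With the replicate block 22 genes were higher and 21 lower in NRAS tumors against normal brain, 22 and 22 in PDGFB tumors against normal brain, and 2 and 1 in NRAS against PDGFB tumors. That block ended the calls of Cct8, Dnajb14, Dnajc8 and Dnajc10 in NRAS tumors and of Dnaja1, Dnajb14, Dnajc25 and Hspb1 in PDGFB tumors against normal brain, and brought Dnajc4 in NRAS tumors past the threshold. The pairs matched in titles correlated at -0.0829 and 0.127. Depth limits Hspa1a, Hspa1b and other genes near 1 FPKM.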
